A study of Saccharomyces cerevisiae with 15 samples.

Results

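The cytosolic and nuclear J-domain proteins of budding yeast are described here, as 10 genes chosen by name: SIS1, YDJ1, APJ1, XDJ1, CAJ1, DJP1, SWA2, JJJ1, JJJ2 and JJJ3. Each was represented by 1 probe set that matched no other gene, so they made up 10 of the 5656 genes that the array annotation names. RNA was measured in 15 samples of Saccharomyces cerevisiae with Affymetrix arrays, 3 arrays in each of 5 groups. All cells were MATa of the BY4741 background, were cultured in 12 mL of uracil-free synthetic medium at 30 °C, with 2% galactose as the carbon source, and expressed a fragment of huntingtin (htt), the protein whose expanded glutamine repeat causes Huntington's disease. The ume1Δ, mbf1Δ and bna4Δ strains, which the series describes as suppressors, expressed the mutant fragment Htt103Q, with 103 glutamines. Undeleted cells expressed either the same mutant fragment (the Htt103Q group) or the wild-type fragment with 25 glutamines (the Htt25Q group). Htt103Q is under a galactose-inducible promoter per the labels, which do not state how Htt25Q is expressed. No group lacked an htt fragment, and no deletion strain expressed Htt25Q, so what a deletion does without Htt103Q was not measured. The labels do not say whether the arrays of a group came from separate cultures, so p-values measure the spread between these samples, which may be technical.

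J-domain proteins, the Hsp40 family, deliver misfolded clients to Hsp70 chaperones and set off the Hsp70 ATPase through a conserved J-domain. Sis1 and Ydj1 are the main cytosolic partners of the Ssa class of Hsp70, and Sis1 is essential. Both are known in yeast for their work on polyglutamine aggregates and prions. Several J-domain genes are targets of the heat shock factor Hsf1, which is released when misfolded proteins occupy chaperones. Other members have narrow tasks, such as clathrin uncoating or ribosome assembly.

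The deposited log2 values fell into 2 sets with different lowest values, 2.059 and 2.015, which were treated as processed apart. The first held the 9 arrays of ume1Δ, Htt103Q and Htt25Q, with array medians of 6.35 to 6.47, and the second the 6 arrays of mbf1Δ and bna4Δ, with medians of 6.78 to 6.84. Groups were compared only within a set. The spread behind each p-value, however, came from a single fit to all 15 arrays, so it also drew on arrays of the other set. Results with each set fitted alone are given beside the calls. Values below are log2 signals after quantile normalization across the 15 arrays, so each stands relative to the rest of its array. Of the deleted genes, UME1 averaged 2.34 in ume1Δ and 6.88 to 7.05 in the other groups, MBF1 2.09 in mbf1Δ and 10.3 to 11.6 in the others, and BNA4 2.12 in bna4Δ and 5.14 to 7.84 in the others. Of the markers of the labelled strain, the a-cell receptor gene STE2 averaged 9.09 to 9.95 over the groups and the other a-cell genes 3.17 to 12.8, with ASG7 the lowest. The alpha-cell genes averaged 2.04 to 2.06 for MF(ALPHA)2 and 2.27 to 5.69 for the other 3, and of the genes disrupted in BY4741, MET17 averaged 2.04 and the 3 probe sets of LEU2 2.04 to 2.57, while the pair for HIS3 averaged 9.29 to 9.86 and 6.451 to 7.999. URA3, the marker that growth without uracil selects, averaged 8.90 to 10.3. A pair of arrays stood apart. In Htt25Q array 1 the actin probe sets of the 3′ end exceeded those of the 5′ end by 2.48 (log2), where the other arrays ranged from −0.33 to 0.31. The small-subunit ribosomal RNA signal of ume1Δ array 1 was 10.4, against 5.90 to 8.08 on the other arrays of the first set. The arrays of the second set had 9.66 to 11.1, so that array stood apart only within its own set.

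Within the first set 4 members were called in at least 1 comparison. SIS1 and APJ1, which serve general protein quality control, were 2.16-fold and 2.44-fold higher in Htt103Q than in Htt25Q, and 2.09-fold and 3.09-fold higher in ume1Δ than in Htt25Q. YDJ1 was 1.73-fold higher in ume1Δ than in Htt25Q. JJJ3, a diphthamide synthesis factor, was lower in Htt103Q than in both ume1Δ and Htt25Q. In whole cultures, fewer expressing cells and less RNA per cell cannot be told apart. In the second set APJ1 was 3.54-fold lower in mbf1Δ than in bna4Δ, and XDJ1 was 1.67-fold lower. CAJ1, DJP1, SWA2, JJJ1 and JJJ2 were not called in any of the 4 comparisons, where a probe set was called at a Benjamini-Hochberg adjusted p under 0.05 in a limma fit to all 9275 probe sets that were not controls. The plot of every array by member shows these levels.

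**Figure D1:**
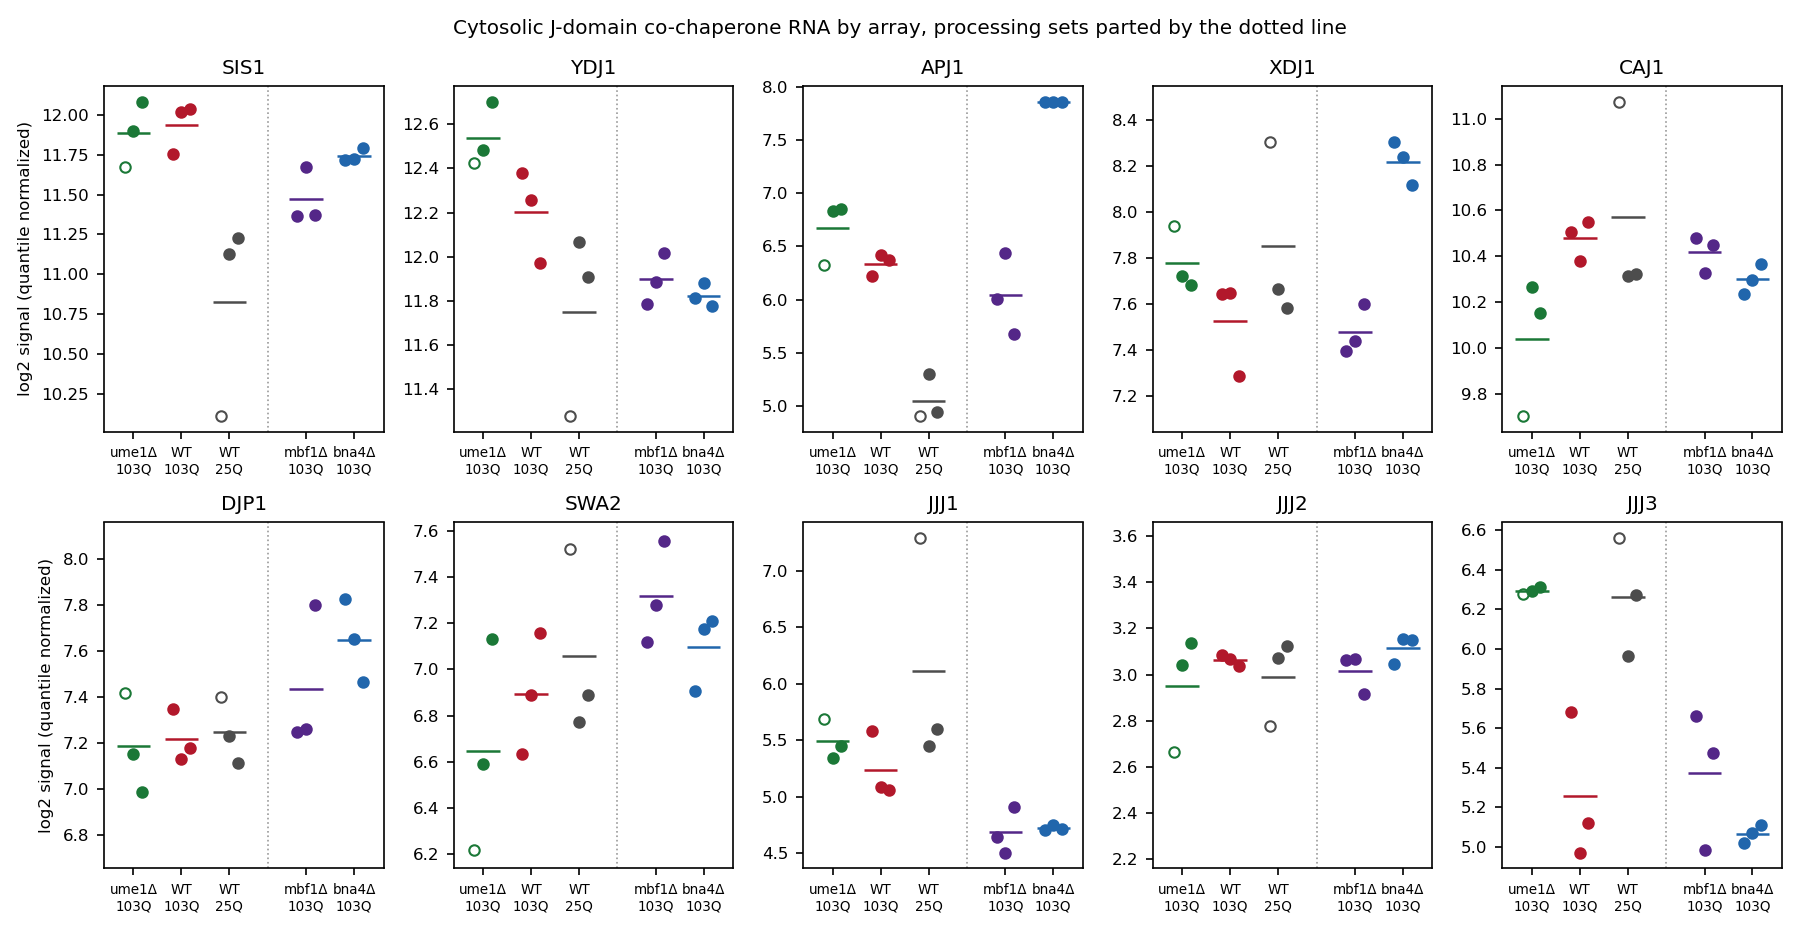
Log2 signal (quantile normalized, vertical axes with separate ranges) of each of the 10 members on each of 15 arrays, grouped by strain and htt fragment on the horizontal axis, with a bar at the mean of 3 arrays and the processing sets parted by a dotted line. Open circles are Htt25Q array 1 and ume1Δ array 1. The 3 arrays of APJ1 in Htt25Q lie below all others of the first set, and JJJ3 in Htt103Q lies below both ume1Δ and Htt25Q.

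By label Htt103Q and Htt25Q differ in the length of the glutamine repeat. A difference in how the fragments were expressed cannot be told apart from it. Of the 10 members 2 were called higher and 1 lower, beside 2.06% and 2.38% of all probe sets, and 4.44% called in either direction. At an unadjusted p under 0.05 there were 5, where 17.3% of all probe sets passed. The arrays of the groups did not overlap for the same 3 members, against 18.9% of all probe sets. The median change over the 9 members with a usable level (all but JJJ2) was −0.09 on the log2 scale, and that over all probe sets was 0. Of these 9 members, 3 had a higher and 6 a lower mean in Htt103Q.

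SIS1 encodes the essential Sis1, which binds misfolded proteins and moves them between compartments. It had 11.75, 12.02 and 12.04 in Htt103Q, against 10.11, 11.13 and 11.23 in Htt25Q. All Htt103Q arrays lay above all Htt25Q arrays, and the lowest value of the first set was Htt25Q array 1. Its log2 fold change was 1.11 ± 0.245 (SE, n = 3 each, limma adjusted p = 0.0292), a 2.16-fold higher level in Htt103Q. Without Htt25Q array 1 and ume1Δ array 1 it was 0.76 (adjusted p = 0.00643). The call was lost with the first processing set fitted alone (adjusted p = 0.177), with only the 6 arrays compared (0.364), with deposited values (0.0505), and without Htt103Q array 2 (0.106) or 3 (0.104), over a range of 0.00643 to 0.364 among 12 alternatives.

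YDJ1, for the farnesylated Ydj1 that is the most general of these partners of Hsp70, had 12.38, 12.26 and 11.97 in Htt103Q, against 11.28, 12.07 and 11.91 in Htt25Q. The groups overlapped, and Htt25Q array 1 was again the lowest. The log2 fold change of 0.45 had a 95% interval of 0.06 to 0.85 and did not pass the test (limma adjusted p = 0.213). Without both arrays that stood apart it was 0.22 (adjusted p = 0.430); how far the 3′ to 5′ imbalance of that array bears on SIS1 and YDJ1 was not tested.

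APJ1 encodes a relative of Ydj1 that acts in the turnover of misfolded proteins in the nucleus. Its levels were 6.22, 6.42 and 6.37 in Htt103Q, against 4.90, 5.30 and 4.94 in Htt25Q. The groups were far apart, and Htt25Q array 1 lay beside array 3 rather than away from it. The log2 fold change was 1.29 ± 0.193 (SE, n = 3 each, limma adjusted p = 0.00373), which is 2.44-fold. It ranged from 1.22 to 1.47 among the 12 alternatives, and it was called in all of them except the fit to only the 6 arrays compared (adjusted p = 0.0627, the highest of 0.00176 to 0.0627). It was called with the first set fitted alone (adjusted p = 0.0263) and without both arrays that stood apart (0.00692).

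JJJ3, also named DPH4, is needed to make diphthamide, the modified histidine of elongation factor 2. It had 5.68, 4.97 and 5.12 in Htt103Q, against 6.56, 5.96 and 6.27 in Htt25Q. Every Htt103Q array lay below every Htt25Q array, with array 1 the highest in each group. The log2 fold change was −1.01 ± 0.21 (SE, n = 3 each, limma adjusted p = 0.0231), a 2.01-fold lower level in Htt103Q. Among the 12 alternatives it lay between −1.22 and −0.86, with adjusted p of 0.00781 to 0.277. The call was lost with the first set fitted alone (0.0994), with only the 6 arrays (0.277), without Htt25Q array 1 (0.0558) or both arrays that stood apart (0.0674), and without Htt103Q array 2 (0.0955) or 3 (0.0924).

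JJJ1, which works on the cytosolic maturation of the large ribosomal subunit, had 5.58, 5.08 and 5.06 in Htt103Q, against 7.29, 5.45 and 5.60 in Htt25Q. The other arrays of Htt25Q overlapped those of Htt103Q, and Htt25Q array 1 lay far above every other array of the first set. The log2 fold change was −0.87, with an interval of −1.72 to −0.02, and it did not pass the test (limma adjusted p = 0.273). Without both arrays that stood apart it was −0.28 (adjusted p = 0.434).

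The other members did not pass the test in this comparison. XDJ1, a relative of Ydj1 that acts at the mitochondrial outer membrane, had a log2 fold change of −0.32 (interval −0.70 to 0.06), which was −0.10 without Htt25Q array 1 and −0.20 without Htt103Q array 3. SWA2 is the yeast auxilin, which brings Hsp70 to clathrin-coated vesicles, and had −0.17 (−0.73 to 0.39), or 0.06 without Htt25Q array 1. CAJ1, a J-domain protein of the class with no zinc-binding or glycine-rich region, had −0.09 (−0.52 to 0.33), and DJP1, which assists protein import into peroxisomes, had −0.03 (−0.39 to 0.33). With 3 arrays a group, differences anywhere within these intervals remain compatible with the data.

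JJJ2, whose task is little known, gave no usable level. Its deposited value was the same, 3.53, on all 6 arrays of the second set, and 5 of the 9 arrays of the first shared 2.68. Such a shared value was common: 683 of 9275 probe sets held 1 value on all arrays of the second set, and 484 on all arrays of the first. The spread that normalization gave JJJ2, 2.67 to 3.14 in the first set and 2.91 to 3.15 in the second, is therefore not read as a difference. The fit still returns values for JJJ2, which are drawn in the plots and listed where settings are compared, but they describe no measured change.

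**Figure D2:**
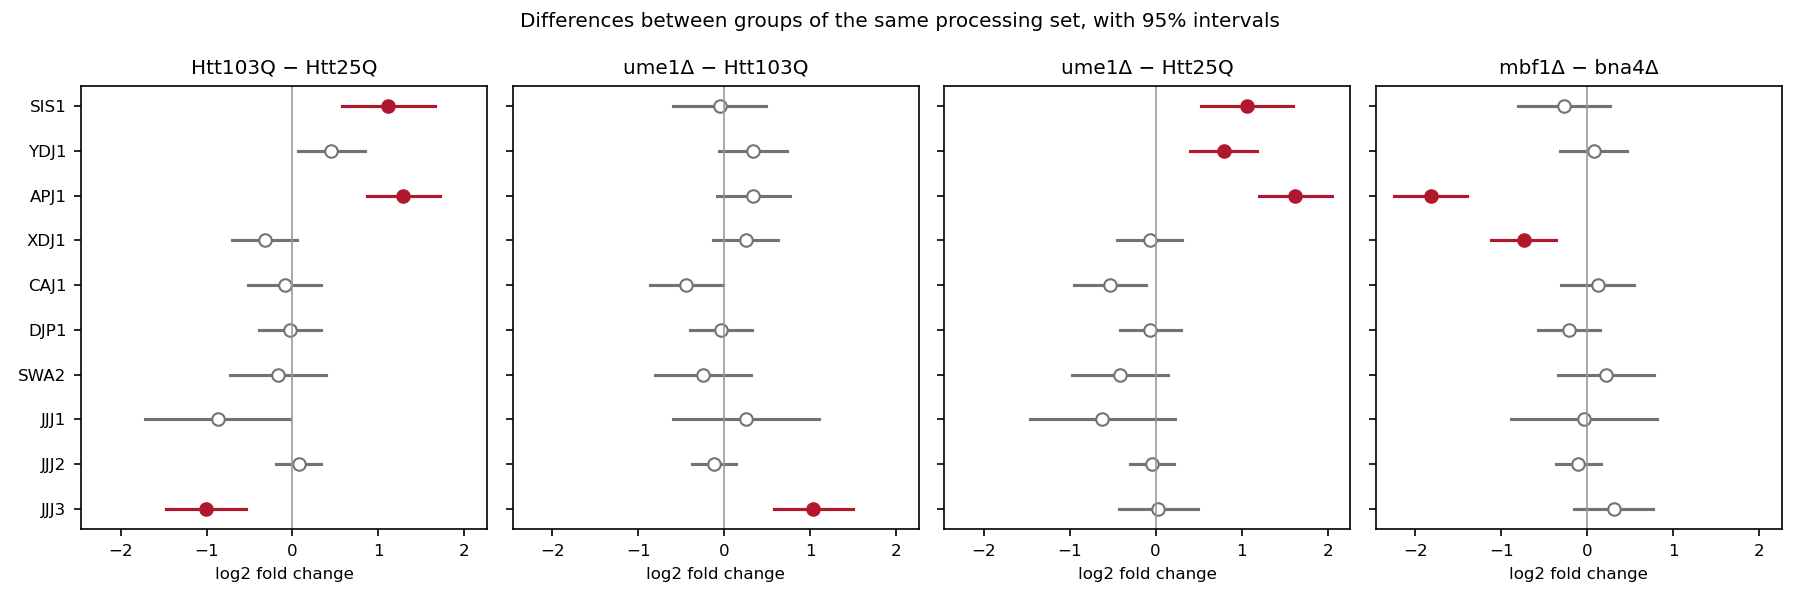
Log2 fold change (horizontal axis) of each member in the 4 comparisons within a processing set, with 95% intervals from the limma fit; JJJ2 is drawn but has no usable level. Filled red points passed an adjusted p of 0.05, with SIS1, APJ1 and JJJ3 in the first panel, JJJ3 in the second, SIS1, YDJ1 and APJ1 in the third, and APJ1 and XDJ1 in the fourth.

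The ume1Δ strain was compared with Htt103Q to ask what the loss of UME1, a subunit of Rpd3 histone deacetylase complexes, changes in cells with the mutant fragment. Both comparisons that hold Htt103Q share its arrays, so changes in opposite directions between them are not independent. The comparisons against Htt25Q share the Htt25Q arrays, and those of ume1Δ share the ume1Δ arrays. Changes in the same direction within either of these pairs are therefore not independent. JJJ3 was the single member called, higher in ume1Δ, beside 1.60% of all probe sets called higher and 2.60% called in either direction. At an unadjusted p under 0.05 there were 2 members, where 13.4% of all probe sets passed. It had 6.28, 6.29 and 6.31 in ume1Δ, against 5.68, 4.97 and 5.12 in Htt103Q. The ume1Δ arrays lay close together, with an SD of 0.0187, and all above Htt103Q. The log2 fold change was 1.04 ± 0.21 (SE, n = 3 each, limma adjusted p = 0.0266), or 2.05-fold, between 0.89 and 1.25 among 12 alternatives. The call was lost with the first set fitted alone (adjusted p = 0.120), with only the 6 arrays (0.123), without Htt103Q array 2 (0.115) or 3 (0.112), and without any of ume1Δ arrays 1 (0.0725), 2 (0.0772) and 3 (0.0673), in a range of 0.0094 to 0.123. It held without both arrays that stood apart (0.0394).

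The arrays of SIS1 and APJ1 overlapped between ume1Δ and Htt103Q. SIS1 had 11.67, 11.90 and 12.08 in ume1Δ and a log2 fold change of −0.05 against Htt103Q, with an interval of −0.59 to 0.49. APJ1 had 6.32, 6.84 and 6.86 in ume1Δ and 0.34 (−0.09 to 0.76). Neither interval shows that the levels were the same.

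YDJ1 had 12.43, 12.49 and 12.70 in ume1Δ, against 12.38, 12.26 and 11.97 in Htt103Q. The arrays did not overlap, yet the log2 fold change of 0.34 did not pass the test (limma adjusted p = 0.472). The same held for XDJ1 at 0.25 (0.588) and for CAJ1, at −0.44 (0.351), so that with JJJ3 the arrays of 3 members lay apart with the higher level in ume1Δ and those of 1 with the lower, against 20.4% of all probe sets in either direction. CAJ1 had 9.70, 10.27 and 10.15 in ume1Δ, against 10.51, 10.38 and 10.55 in Htt103Q. Its lowest value was ume1Δ array 1, the array with the high ribosomal RNA signal, and without it and Htt25Q array 1 the log2 fold change was −0.27 (adjusted p = 0.0543). DJP1 (−0.03), JJJ1 (0.25) and SWA2 (−0.25) overlapped between the groups. SWA2 was also lowest on that array, at 6.22, against 6.59 and 7.13 on the other ume1Δ arrays. Without ume1Δ array 1 the log2 fold change of SWA2 was −0.03, that of JJJ1 0.16 and that of APJ1 0.51, none past the test. What the ribosomal RNA signal has to do with these values was not tested.

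The ume1Δ strain was then compared with Htt25Q, which differs from it in both the deletion and the fragment. Of the members 3 were called, all higher in ume1Δ, beside 4.18% of all probe sets called higher and 7.86% in either direction. There were 4 at an unadjusted p under 0.05, where 23.5% of all probe sets passed. APJ1 had the log2 fold change of 1.63 ± 0.193 (SE, n = 3 each, limma adjusted p = 0.000448), which is 3.09-fold, and it was lost only with the 6 arrays of the groups alone (adjusted p = 0.0609, among alternatives from 0.000172). SIS1 had 1.06 (0.0237) and YDJ1 0.79 (0.0217), and both calls were lost with the first set fitted alone (0.140 and 0.131), with only the 6 arrays (0.319 and 0.286), and without ume1Δ array 2 (0.0697 and 0.0567) or 3 (0.0627 and 0.0607). That of SIS1 was also lost with deposited values (0.0508). Without Htt25Q array 1 alone SIS1 had 0.71 (adjusted p = 0.0088). Without both arrays that stood apart it had 0.81 (0.00474) and YDJ1 0.61 (0.0253).

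JJJ3 averaged 6.30 ± 0.0187 in ume1Δ and 6.27 ± 0.299 in Htt25Q (SD, n = 3 each). Its log2 fold change of 0.03 had an interval of −0.43 to 0.49. CAJ1 was lower on every ume1Δ array, with −0.53 (interval −0.95 to −0.11), but did not pass (limma adjusted p = 0.122), and without both arrays that stood apart it was −0.11. JJJ1 had −0.62, SWA2 −0.41, XDJ1 −0.07 and DJP1 −0.06, none past the test. Without Htt25Q array 1 JJJ1 had −0.03, SWA2 −0.18 and CAJ1 −0.28, and without ume1Δ array 1 SWA2 had −0.20. Arrays did not overlap for CAJ1 and the 3 called members, against 21.4% of all probe sets.

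The means of the called members in the first set can be put in order, though the tests part only some neighbours. APJ1 and YDJ1 had their highest mean in ume1Δ, then Htt103Q, then Htt25Q, and SIS1 in Htt103Q, then ume1Δ, then Htt25Q. In APJ1 and SIS1 the lowest group differed from both others, while the upper neighbours did not pass. In YDJ1 neither pair of neighbours passed, and only the outer groups differed. In JJJ3 the order was ume1Δ, Htt25Q, Htt103Q, with the upper neighbours not passing and the lowest group apart.

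Deleting MBF1, which encodes a coactivator of Gcn4, or BNA4, which encodes kynurenine 3-monooxygenase, gave the second set, and the mbf1Δ strain was compared with bna4Δ. Both expressed Htt103Q, and no undeleted cells were in that set. Of the members 2 were called, both lower in mbf1Δ, beside 4.81% of all probe sets called lower and 10.5% in either direction. There were also 2 at an unadjusted p under 0.05, where 21.2% of all probe sets passed. The arrays of 3 members lay apart, all lower in mbf1Δ, in a comparison where 37.3% of all probe sets did.

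APJ1 had 6.01, 6.44 and 5.68 in mbf1Δ, against 7.86 on each of the 3 arrays of bna4Δ. The deposited bna4Δ values were 8.03, 8.02 and 8.02, so the close agreement was there before normalization. The log2 fold change was −1.82 ± 0.193 (SE, n = 3 each, limma adjusted p = 0.000155), the largest change in size of any member in the 4 comparisons. It lay between −2.02 and −1.64 among 11 alternatives and was called in each, with adjusted p up to 0.00961. APJ1 averaged 6.67 in ume1Δ, 6.34 in Htt103Q and 5.05 in Htt25Q, but across the sets strain and processing cannot be told apart.

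XDJ1 had 7.39, 7.44 and 7.60 in mbf1Δ, against 8.30, 8.24 and 8.12 in bna4Δ. The groups were apart by more than the range within either. XDJ1 had a log2 fold change of −0.74 ± 0.172 (SE, n = 3 each, limma adjusted p = 0.0185), and it lay between −0.80 and −0.69 among 11 alternatives. The call held with the second set fitted alone (adjusted p = 0.0078) and was lost without bna4Δ array 1 (0.0697) or 2 (0.0627) or mbf1Δ array 1 (0.0678) or 2 (0.0586), in a range of 0.00115 to 0.0697.

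SIS1 had 11.37, 11.68 and 11.37 in mbf1Δ, against 11.71, 11.72 and 11.79 in bna4Δ. Its arrays did not overlap, but the log2 fold change of −0.27 (interval −0.81 to 0.27) did not pass the test (limma adjusted p = 0.663). YDJ1 had 0.07 (−0.32 to 0.47), with levels of 11.79 to 12.02 in mbf1Δ and 11.78 to 11.88 in bna4Δ. For both main partners of Hsp70 these intervals do not show that the strains had the same level. JJJ3 had 0.31 (−0.16 to 0.77), SWA2 0.22 (−0.34 to 0.78), DJP1 −0.21 (−0.57 to 0.15), CAJ1 0.12 (−0.30 to 0.54) and JJJ1 −0.04 (−0.88 to 0.81), none past the test.

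**Figure D3:**
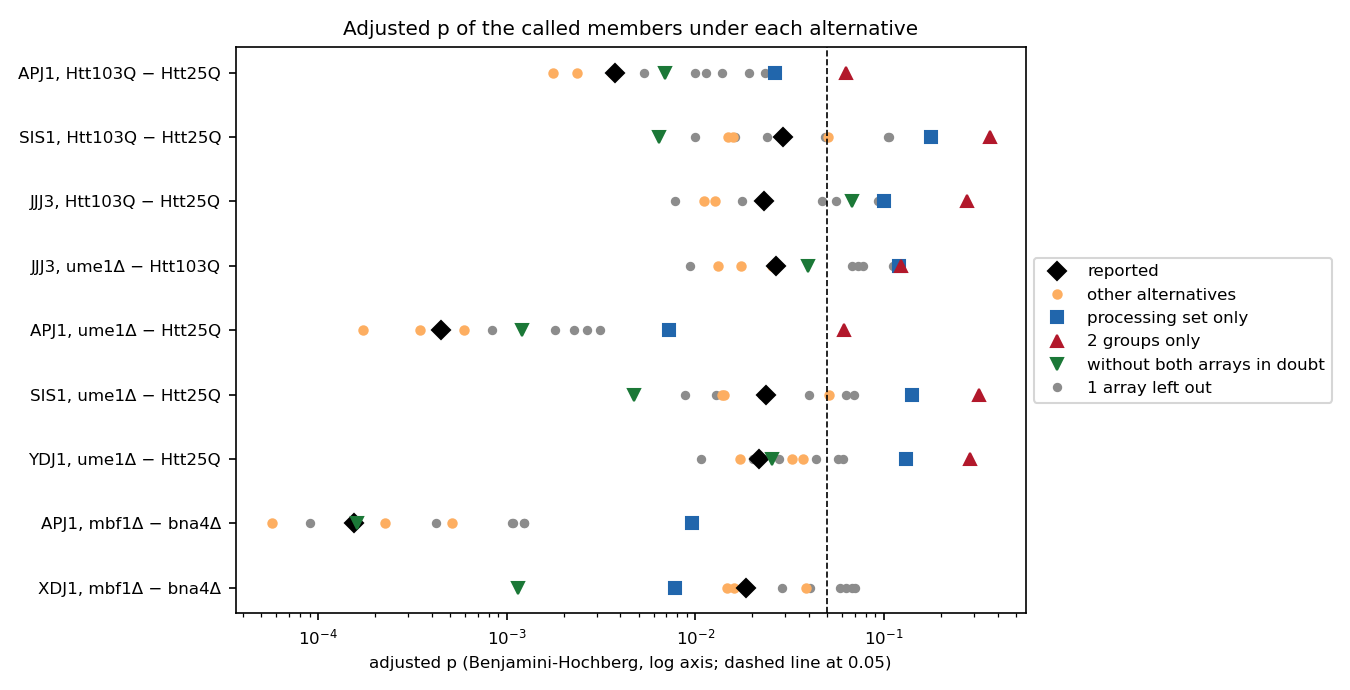
Adjusted p (horizontal log axis, dashed line at 0.05) of each called member and comparison as reported (diamonds) and under each alternative fit. APJ1 in mbf1Δ against bna4Δ lies left of the line, and so is called, in every fit. In the other comparisons where it was called, APJ1 lies right of the line only with the 2 groups compared alone. SIS1, YDJ1 and JJJ3 lie right of the line in that fit, with the first processing set alone and in some other fits, including some without a single array. XDJ1 lies right of the line only in some fits without a single array.

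The members differed in how much they varied. Over the 9 arrays of the first set JJJ1 spanned 2.23 on the log2 scale, of which 1.83 was within Htt25Q. SIS1 spanned 1.97 and APJ1 1.96, but the widest group of SIS1 was Htt25Q with 1.12, and that of APJ1 was ume1Δ with 0.54. DJP1 had the smallest span there among the members with a usable level, 0.43. Over the 6 arrays of the second set APJ1 spanned 2.19, XDJ1 0.91 and all others 0.68 or less. APJ1 thus varied mostly between groups. JJJ1 varied mostly within Htt25Q, where array 1, which stood apart, had 7.29 and the others 5.45 and 5.60.

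Genes with the pattern most like a called member were sought among 6494 other probe sets with 1 gene, by the mean absolute difference over the 9 arrays of the first set after each was centred on its own mean. The closest to SIS1 were HSP104 (0.0858), CUR1 (0.0987) and HSP10 (0.108), where SIS1 itself spanned 1.97. HSP104 encodes the disaggregase, CUR1 a sorting factor for misfolded proteins that binds Sis1, and HSP10 the mitochondrial co-chaperonin. The closest to APJ1 were RPN4 (0.154), the transcription factor of proteasome genes, CUB1 (0.170), and FES1 (0.170), an exchange factor of Hsp70. The closest to JJJ3 were SAP30 (0.136), a subunit of an Rpd3 complex, and the ribosome biogenesis genes NOP19 (0.143) and BUD23 (0.162). YDJ1 was followed by CBK1 (0.0851), REX3 (0.0926) and SAL1 (0.0975). The 9 arrays include Htt25Q array 1, which stood apart and on which SIS1 and YDJ1 were lowest. Likeness was not computed without it, and shared regulation was not tested.

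The partners of the J-domain proteins were counted from lists of genes. Of 9 measured genes for Hsp70, Hsp110 and their exchange factors, 4 were higher in Htt103Q than in Htt25Q and 0 lower, with a median of 0.43, where 4.44% of all probe sets were called. They were the Hsp70 gene SSA4 (2.95 ± 0.121, SE, limma adjusted p = 2.34e-07), SSA3 (1.65), the Hsp110 gene SSE2 (1.46) and FES1 (1.13). SSA1 and SSA2, which supply most Hsp70 of the Ssa class, had 0.15 and 0.43 and were not called in this comparison. SSB1 and SSB2 share a probe set and were not counted. Of 5 genes of the disaggregase, small heat shock and sorting list, 3 were higher, BTN2 (3.28), HSP26 (2.44) and CUR1 (1.17), with a median of 1.36. Of 15 probe sets for 14 genes of Hsp90 and its co-chaperones, 3 were higher, the Hsp90 gene HSP82 (1.22), CPR6 (0.95) and AHA1 (0.67). The median of that list was 0.22, with a higher mean in Htt103Q for 8 probe sets and a lower mean for 7. HSF1 itself had −0.03 (adjusted p = 1). With the first set fitted alone the counts were 3, 2 and 1, where 1.37% of all probe sets were called, and without both arrays that stood apart 4, 2 and 6, where 6.74% were.

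Between ume1Δ and Htt103Q 0 genes of these 3 lists were called by limma, where 2.60% of all probe sets were. At an unadjusted p under 0.05 there were 1, 1 and 2, where 13.4% of all probe sets passed. Without both arrays that stood apart 1, 0 and 2 were called, beside 464 of 9275 probe sets. Against Htt25Q, ume1Δ had 5 of the 9 Hsp70 genes higher, 4 of the 5 genes of the disaggregase list and 4 of the 15 Hsp90 probe sets, where 7.86% of all probe sets were called, and 4, 1 and 3 with the first set fitted alone, where 2.62% were. They included SSA4 (2.92), BTN2 (3.36) and HSP82 (1.56). SSA2 was also called higher there (0.81, limma adjusted p = 0.0426), while SSA1 (0.55) was not called.

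Between mbf1Δ and bna4Δ the Hsp70 gene SSA4 and APJ1 changed in opposite directions. SSA4 averaged 8.30 ± 0.0727 in mbf1Δ and 6.76 ± 0.0509 in bna4Δ (SD, n = 3 each), a log2 fold change of 1.53 (limma adjusted p = 1.88e-05), while APJ1 was lower in mbf1Δ. Of the 9 Hsp70 genes 2 were called, where 10.5% of all probe sets were, and 4 without both arrays that stood apart, where 18.8% were. SSE1, the main Hsp110 gene, was lower in mbf1Δ (−0.47, limma adjusted p = 0.0255). Of the disaggregase and Hsp90 lists 0 genes were called by limma, 0 and 2 at an unadjusted p under 0.05, and 1 and 2 were called with the second set fitted alone, where 13.7% of all probe sets were. The plot of the chaperone lists sets the members beside these partners.

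**Figure D4:**
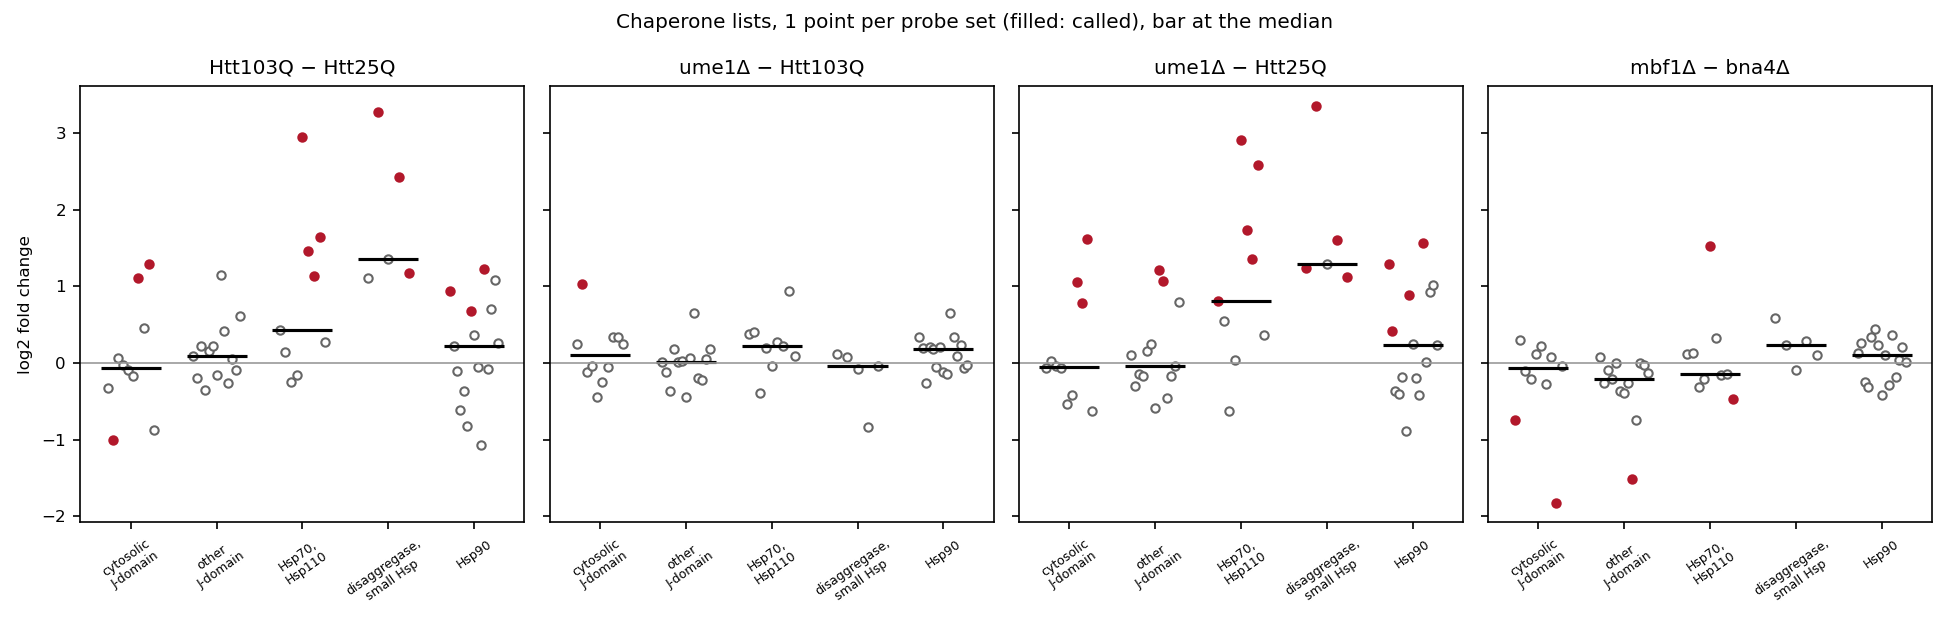
Log2 fold change (vertical axis) of each probe set of 5 chaperone lists in the 4 comparisons, with called probe sets filled in red and a bar at each list's median. In the first panel the disaggregase list has its median at 1.36 and the cytosolic J-domain list, with JJJ2 drawn, at −0.06, and in the fourth panel APJ1 is the lowest point at −1.82 while SSA4 is the highest at 1.53.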

How the data were processed

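RNA of 15 samples was hybridised to Affymetrix yeast arrays. The deposited values are log2 signals with 1 value for each probe set on each array. How the authors summarised and normalized them is not stated by the labels. There were 9335 probe sets, and 60 controls were left out. Of the 9275 tested, 6504 had 1 gene in the platform annotation, 328 several and 2443 none. The precision is limited by the 3 arrays a group.

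The log2 values were quantile normalized across the 15 arrays and fitted as 5 group means in limma 3.58.1 under R 4.3.3, two-sided, with Benjamini-Hochberg adjustment over all 9275 probe sets, a threshold of 0.05 and 95% intervals. The fit was tested on simulated data. Alternatives were deposited values, each processing set alone, the compared groups alone, the replicate number as a block, the dimmest 25% of probe sets left out, each array left out, and Htt25Q array 1 and ume1Δ array 1 both left out. The members, lists and tests were chosen with earlier results of these data known. All members are named, with up to 4 called genes of each list per comparison; SSA1 and SSA2 were added after their values were seen, and counts of the lists under 2 alternatives were also added then. No array pair was identical (0 pairs). Arrays sharing a replicate number were checked for shared deviations, and only some of these pairs correlated. Sequences, promoter motifs and coordinates were not used here.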

Additional observations from a re-analysis of the deposited data

How the results depend on the processing

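Of 423 values of the 9 members with a usable level under an alternative, 370 kept their direction and side of the threshold, 33 kept their direction but lost the call, 20 changed sign and 0 gained a call. All 20 sign changes were of members not called in that comparison. The fitted values of JJJ2, which describe no measured change, are listed below only because they changed sign. The cause of each change was not tested. With the processing set fitted alone, called members numbered 1 in Htt103Q against Htt25Q, 0 in ume1Δ against Htt103Q and 1 in ume1Δ against Htt25Q, and called probe sets 127, 56 and 243. With only the compared groups, called members numbered 0, 0 and 0, and probe sets 32, 121 and 75. Without Htt25Q array 1 and ume1Δ array 1, called probe sets numbered 625, 464 and, in mbf1Δ against bna4Δ, 1745, against 412, 241 and 978 as reported. Leaving out single arrays gave, in Htt103Q against Htt25Q, 1 to 3 members and 191 to 559 probe sets, in ume1Δ against Htt103Q 0 to 1 and 115 to 241, in ume1Δ against Htt25Q 1 to 3 and 464 to 871 (729 as reported), and in mbf1Δ against bna4Δ 1 to 2 and 634 to 920.

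Without both arrays that stood apart, the log2 fold change turned in Htt103Q against Htt25Q for JJJ2 (−0.0340), CAJ1 (0.159), DJP1 (0.0487) and SWA2 (0.0631), in ume1Δ against Htt103Q for SIS1 (0.0559) and JJJ2 (0.0266), and in ume1Δ against Htt25Q for XDJ1 (0.0773) and SWA2 (0.0305). With deposited values it turned for JJJ2 in ume1Δ against Htt103Q (0.0509) and Htt25Q (0.0707), and for JJJ1 in mbf1Δ against bna4Δ (0.0209). Leaving out single arrays turned, in Htt103Q against Htt25Q, JJJ2 (−0.0340 to 0.139), CAJ1 (−0.219 to 0.159), DJP1 (−0.0958 to 0.0487) and SWA2 (−0.311 to 0.0631), in ume1Δ against Htt103Q SIS1 (−0.149 to 0.0559), JJJ2 (−0.210 to 0.0266) and DJP1 (−0.149 to 0.0649), in ume1Δ against Htt25Q DJP1 (−0.177 to 0.0371), XDJ1 (−0.204 to 0.156), JJJ3 (−0.121 to 0.178) and JJJ2 (−0.149 to 0.0989), and in mbf1Δ against bna4Δ JJJ1 (−0.146 to 0.0548). The dim filter left out JJJ2.

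With the replicate number as a block, called members numbered 3, 1, 3 and 2 in the 4 comparisons, as without it. Deviations of arrays with the same number correlated at −0.169 to 0.434, and 3 of 12 pairs exceeded 0.1. Those of arrays with different numbers correlated at −0.501 to 0.238. Between Htt103Q and ume1Δ the correlation was 0.34 for arrays 1, −0.169 for arrays 2 and 0.434 for arrays 3. Whether any of these arrays were handled together was not tested.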

Other observations

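The 13 J-domain genes outside the cytosolic group, whose proteins act in mitochondria, the endoplasmic reticulum, at the ribosome or in the spliceosome, were counted in the same fit. In Htt103Q against Htt25Q 0 were called by limma, where 4.44% of all probe sets were, and 2 had an unadjusted p under 0.05, where 17.3% had. MDJ1, the main J-domain partner of the mitochondrial matrix Hsp70, came nearest with a log2 fold change of 1.15 (limma adjusted p = 0.0508). In ume1Δ against Htt103Q 0 were called by limma, where 2.60% were, and 2 had an unadjusted p under 0.05, where 13.4% had. In ume1Δ against Htt25Q MDJ1 (1.21, limma adjusted p = 0.0285) and JID1 (1.07, 0.0209), for a mitochondrial J-domain protein, were called higher, where 4.18% of all probe sets were. With the first processing set alone 1 was called, where 2.62% of all probe sets were. Without both arrays that stood apart 0 were, where 8.56% of all probe sets were. In mbf1Δ against bna4Δ JID1 was called lower (−1.51, limma adjusted p = 0.00199), where 4.81% of all probe sets were, and the other 12 were not called. With the second set alone 2 of the 13 were called, where 13.7% of all probe sets were.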
